A study of Mus musculus with 8 samples.

Results

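The nuclear-encoded subunits of the respiratory chain and the ATP synthase were read in mouse lung by RNA sequencing of the whole tissue. Members were the listed genes whose symbol starts with Nduf, Sdh, Uqcr, Cox4, Cox5, Cox6, Cox7, Cox8 or Atp5, without Ndufa4l2, Cox4i2 and Cox8b. This gave 93 of the 15960 listed genes. They were 35 subunits of complex I, 4 of complex II, 8 of complex III, 16 of complex IV, 17 of complex V, 12 assembly factors and 1 pseudogene (Ndufs5-ps). Ndufa4 was counted with complex IV, where its protein is now placed.

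The libraries came from lungs of C57BL/6 mice aged 3 to 5 months, 4 from Alb-Cre mice and 4 from BHLKO mice. BHLKO mice carried Alb-Cre with floxed Hif1a (labelled Hif1_alpha fl/fl) and floxed Bmal1 (Bmal1fl/fl), and the labels give no floxed allele for the Alb-Cre mice. Both groups therefore shared the Cre driver, which is active in hepatocytes, so the lung was not the targeted organ. All mice were kept for 2 weeks in 12 h light and 12 h dark, fed freely and sampled at circadian time 16 on a day when the lights stayed off. The series title places the comparison in a model of hepatopulmonary syndrome, a lung disorder of liver disease. The labels do not say that each library came from a separate animal, so the p-values reflect library-to-library variation, which may be technical. The libraries are called by the number in their description, for example Alb-Cre 1 or BHLKO 2.

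The respiratory chain passes electrons from NADH (complex I) or succinate (complex II) through ubiquinone, complex III and cytochrome c to oxygen at complex IV. Complexes I, III and IV pump protons across the inner mitochondrial membrane, and complex V, the ATP synthase, uses that gradient to make ATP. Most subunits are encoded in the nucleus and a few in mitochondrial DNA, and no mitochondrially encoded gene was listed in the table. In lung, alveolar type 2 cells are rich in mitochondria, and heart muscle, which in mice reaches into the walls of the pulmonary veins, uses its own isoforms of several complex IV subunits. HIF1A is known for shifting cells away from mitochondrial respiration when oxygen is low.

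Total counts ran from 6838427 (Alb-Cre 2) to 15430372 (Alb-Cre 5) per library. On the first principal component, with 28% of the variance, Alb-Cre 5 lay at −6.46, apart from the other Alb-Cre libraries (−32.34 to −26.25) and from the BHLKO libraries (14.64 to 29.98). Lung markers were present in every library. Alveolar type 2 markers summed to 36150 to 44590 CPM in Alb-Cre and 39170 to 43820 CPM in BHLKO, where CPM is counts per 1000000 after TMM scaling. Markers of some blood cells differed, with 4 of 6 T cell and 1 of 5 B cell markers called lower. The T cell markers summed to 33.1 to 73.5 CPM in Alb-Cre and 16.7 to 22.7 CPM in BHLKO. The B cell markers summed to 66.0 to 229 CPM in Alb-Cre and 29.9 to 47.8 CPM in BHLKO. In the other direction, 1 of 3 listed red blood cell markers (Alas2) and 1 of 6 platelet markers (Treml1) were called higher. The red blood cell markers summed to 359 to 524 CPM in Alb-Cre and 723 to 901 CPM in BHLKO, and the platelet markers to 269 to 325 CPM and 359 to 747 CPM. Some lung markers also differed, with 2 of 5 alveolar type 1 markers (Pdpn and Rtkn2) and 1 of 4 fibroblast markers (Pdgfra) called higher. The remaining markers of these lists were not called, and Aqp5 and Dcn among them lay below 0. No alveolar type 2, club, ciliated or endothelial marker was called. The part of these cells in the values below was not tested. In bulk tissue, fewer cells of a type and less RNA per cell cannot be told apart.

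The respiratory chain was read at close to the same level in both groups. Of 88 members with enough counts for the edgeR quasi-likelihood test, 1 was called at a Benjamini-Hochberg adjusted p under 0.05, the complex I subunit Ndufb2, which rose. That is 1.14% of the members, beside 2.26% of all 13517 tested genes called in either direction (1.04% higher in BHLKO and 1.23% lower). At an unadjusted p under 0.05, 9 members passed, all of them higher in BHLKO, which is 10.2% of the members. Over all tested genes 16.1% passed, 7.95% higher and 8.18% lower. Log2 fold changes were above 0 for 58 members and below 0 for 30, against 49.7% above 0 over all tested genes. The median log2 fold change of the members was 0.06, with a range from −0.20 (Atp5mpl) to 0.79 (Cox6a2), and the median of all tested genes was −0.0017. Groups did not overlap for 4 members higher in BHLKO (4.55%, beside 4.63% of all tested genes) and for 0 members lower (beside 4.99%).

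**Figure D1:**
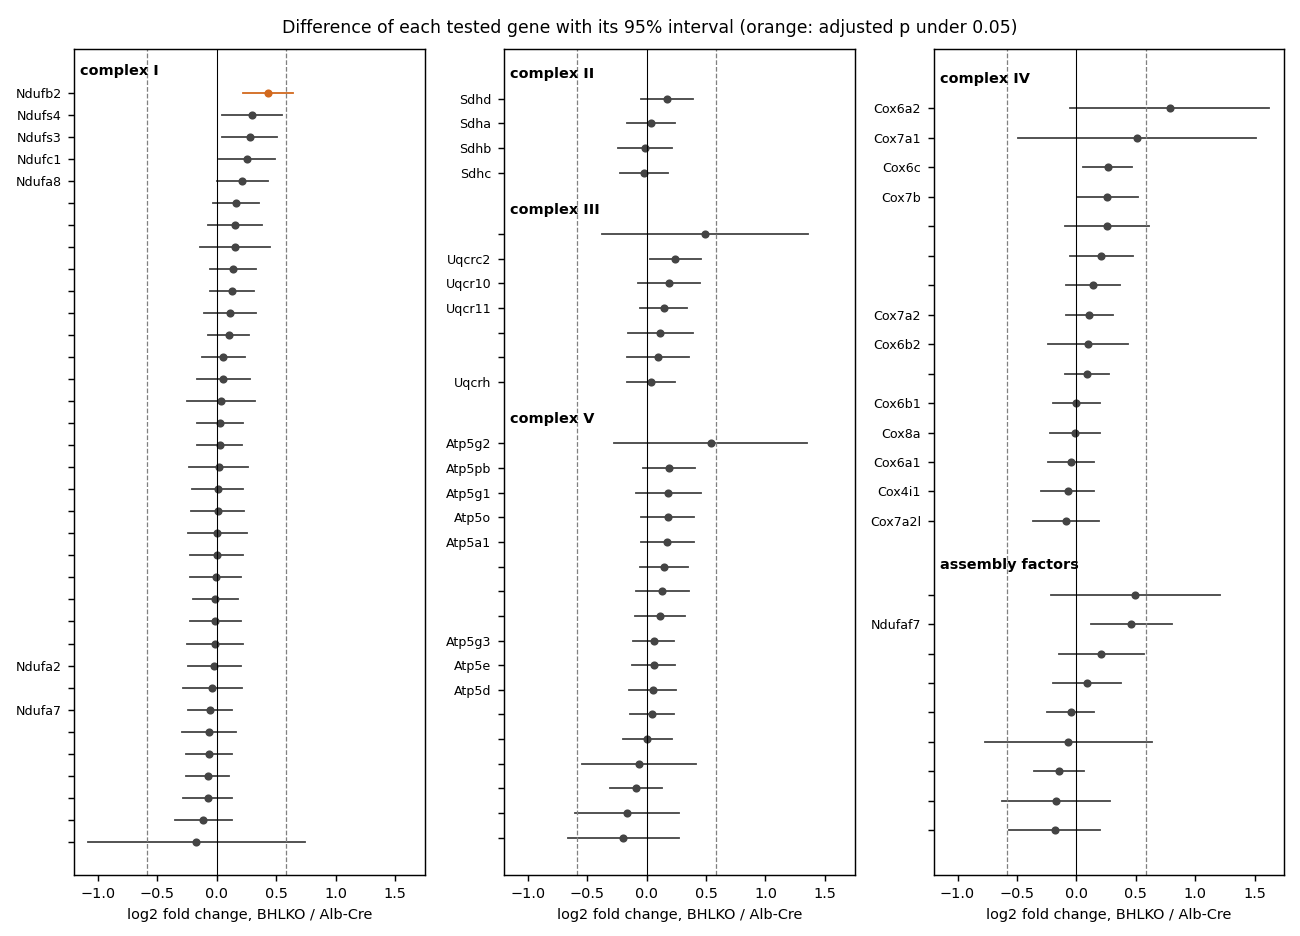
Log2 fold change of BHLKO against Alb-Cre for each tested subunit and assembly factor (points) with its 95% interval (bars), by complex, from edgeR over 4 libraries a group; dashed lines mark 1.5-fold either way, and symbols are printed for the genes chosen by the naming rule and those with an unadjusted p under 0.05. Ndufb2 (orange) alone passed the adjusted threshold, and the widest intervals among subunits of at least 50 CPM are those of Cox6a2 and Cox7a1.

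The intervals bound how large a difference the data allow. The 95% interval lay within 1.5-fold in both directions for 74 of 88 members (84.1%), beside 52.1% of all tested genes. Most members were abundant. Among the 72 members with a mean of at least 50 CPM, the interval lay within 1.5-fold for 68 (94.4%), and among the 3763 tested genes at that level for 88% of them. The 4 exceptions were Ndufb2, Cox6a2, Cox7a1 and Ndufa4.

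The promoters of 4 genes are printed first, since the comparisons below turn on these genes. Ndufb2 is the called member, and Ndufs4 is 1 of the 3 complex I subunits with the smallest p. Cox6a1 is an isoform of most tissues and Cox7a1 a muscle isoform, but of different subunits. No promoter was given for Cox6a2, the muscle counterpart of Cox6a1. Sequences are RefSeq promoters of GRCm38.p6, from 250 bases before to 50 bases after the start, 5′ to 3′ on the gene's strand. Capitals mark matches on either strand to the letters searched for NRF1 (the longer capitals of Cox6a1), YY1 (the capitals of Ndufs4), ETS factors (CCGGAAG) and the E-box (CACGTG).
Ndufb2 (chr6:39592315-39592614, plus strand): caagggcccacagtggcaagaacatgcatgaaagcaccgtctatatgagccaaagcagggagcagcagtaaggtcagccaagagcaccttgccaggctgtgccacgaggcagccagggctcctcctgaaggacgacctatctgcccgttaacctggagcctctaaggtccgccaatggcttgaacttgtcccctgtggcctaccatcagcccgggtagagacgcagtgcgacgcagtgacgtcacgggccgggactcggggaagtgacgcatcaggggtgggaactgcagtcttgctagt
Ndufs4 (chr13:114388045-114388344, minus strand): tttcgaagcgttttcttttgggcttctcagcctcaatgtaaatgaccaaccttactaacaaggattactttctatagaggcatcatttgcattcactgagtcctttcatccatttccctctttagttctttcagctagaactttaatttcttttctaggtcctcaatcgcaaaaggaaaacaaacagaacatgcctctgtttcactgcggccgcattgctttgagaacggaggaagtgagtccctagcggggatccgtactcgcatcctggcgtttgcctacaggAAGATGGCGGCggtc
Cox6a1 (chr5:115348909-115349208, minus strand): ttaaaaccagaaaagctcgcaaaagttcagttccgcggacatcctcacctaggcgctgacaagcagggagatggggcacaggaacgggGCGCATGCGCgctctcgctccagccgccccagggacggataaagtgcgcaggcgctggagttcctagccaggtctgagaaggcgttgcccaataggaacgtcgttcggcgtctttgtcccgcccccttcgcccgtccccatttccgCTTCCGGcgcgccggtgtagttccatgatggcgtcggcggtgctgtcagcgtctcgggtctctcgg
Cox7a1 (chr7:30183921-30184220, plus strand): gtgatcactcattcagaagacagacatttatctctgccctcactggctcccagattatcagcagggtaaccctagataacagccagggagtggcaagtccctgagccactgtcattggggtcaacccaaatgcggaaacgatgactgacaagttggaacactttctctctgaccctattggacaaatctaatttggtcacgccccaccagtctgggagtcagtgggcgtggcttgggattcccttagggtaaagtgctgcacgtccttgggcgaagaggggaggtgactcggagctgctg

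A promoter was given for 78 of the 93 members. A gene was counted where any of its promoters held the letters. The NRF1 letters occurred in 7 of these members (8.97%), beside 1.07% of all 27025 genes with a promoter and 2.05% of the 10706 tested ones. NRF1 is a known activator of nuclear genes for mitochondrial proteins. The ETS letters occurred in 22 (28.2%, beside 9.93% and 18.4%) and the YY1 letters in 5 (6.41%, beside 0.755% and 1.65%). The E-box letters, which include the site of the BMAL1 and CLOCK pair, occurred in 6 (7.69%, beside 8.09% and 11.4%). These were Atp5g1, Atp5g3, Atp5l, Atp5pb, Ndufa7 and Ndufv1. The core letters of the hypoxia element, ACGTG or GCGTG, are not capitalised above. They occurred in 53 (67.9%, beside 46.7% and 65.6%), and ACGTG lies inside the E-box letters. In Ndufs4 the YY1 letters begin at base 286 of the window, and in Cox6a1 the NRF1 letters begin at base 89 and the ETS letters, read on the other strand, at base 235. A match describes these letters only. Ndufb2 and Cox7a1 held none of the 4 capitalised kinds, and neither did Cox7a2, the counterpart of Cox7a1 in most tissues.

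Complex I, the NADH dehydrogenase, holds core subunits that carry the electron path and accessory subunits that build and stabilise it. Of its 35 tested subunits, 1 rose, 34 did not pass the test, 21 lay above 0 and 14 below. The median log2 fold change was 0.02 over all of them, −0.01 over the 7 core subunits and 0.02 over the 28 accessory ones. Ndufb2, a small accessory subunit of the membrane arm, lies on chromosome 6 from 39592574 to 39603382 (mm10, plus strand). It was read at 121, 99.7, 124 and 126 CPM in Alb-Cre 1, 2, 4 and 5 and at 168, 139.9, 157 and 170.2 CPM in BHLKO 2, 3, 4 and 5. Every BHLKO library lay above every Alb-Cre library, and Alb-Cre 2 was the lowest of all. The fold change was 1.35 (log2 0.43 ± 0.10 SE, 95% interval 0.22 to 0.64, edgeR adjusted p = 0.0313). The call depended on single libraries. With 1 library left out at a time, log2 values ran from 0.36 to 0.49 and edgeR adjusted p from 0.0204 to 0.107. It held without Alb-Cre 5 or without BHLKO 3 and was lost without Alb-Cre 1 (log2 0.44), Alb-Cre 2 (0.36), Alb-Cre 4 (0.46), BHLKO 2 (0.40), BHLKO 4 (0.44) or BHLKO 5 (0.40). Of the exonic bases of Ndufb2, 8.6% overlap exons of Braf, Gm16272 or Gm42420, and without a known strand setting such reads cannot be told apart.

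The other complex I subunits with the smallest p missed the adjusted threshold. Ndufs3, a core subunit of the arm that extends into the matrix, was read at 39.9, 36.7, 42.6 and 45.3 CPM in Alb-Cre and 55.0, 44.0, 48.9 and 51.5 CPM in BHLKO. BHLKO 3 lay below Alb-Cre 5, so the groups overlapped (log2 0.27 ± 0.11 SE, edgeR adjusted p = 0.216). Of its 50-base transcript stretches, 39.7% also occur in another gene, so its counts are uncertain. Ndufs4, an accessory subunit whose loss in mice gives a Leigh-like disease, was read at 47.1, 45.4, 58.2 and 51.6 CPM in Alb-Cre and 66.8, 49.9, 62.6 and 68.8 CPM in BHLKO. BHLKO 3 again lay within the Alb-Cre range (log2 0.29 ± 0.12 SE, edgeR adjusted p = 0.228). Ndufc1 and Ndufa8, accessory subunits named after their values were seen, also passed an unadjusted p under 0.05, at log2 0.25 and 0.21 with edgeR adjusted p = 0.267 and 0.306.

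The complex I subunits with the highest level per length gave values near 0. Ndufa7 stood at 1021 CPM per kb of mRNA in Alb-Cre and 980.4 in BHLKO, and Ndufa2 at 801 and 789.8. In CPM, Ndufa7 was at 539, 524, 567, 527 in Alb-Cre and 485, 552, 477, 556 in BHLKO, with overlapping groups (log2 −0.06 ± 0.09 SE, edgeR adjusted p = 0.789). Ndufa2 was at 555, 402, 456 and 419.7 CPM in Alb-Cre and 467, 411, 453 and 476 CPM in BHLKO, again with overlap (log2 −0.02 ± 0.10 SE, edgeR adjusted p = 0.95). Over the complex I subunits of at least 50 CPM, interval bounds ran from −0.35 (Ndufv3, lower bound) to 0.64 (Ndufb2, upper bound).

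**Figure D2:**
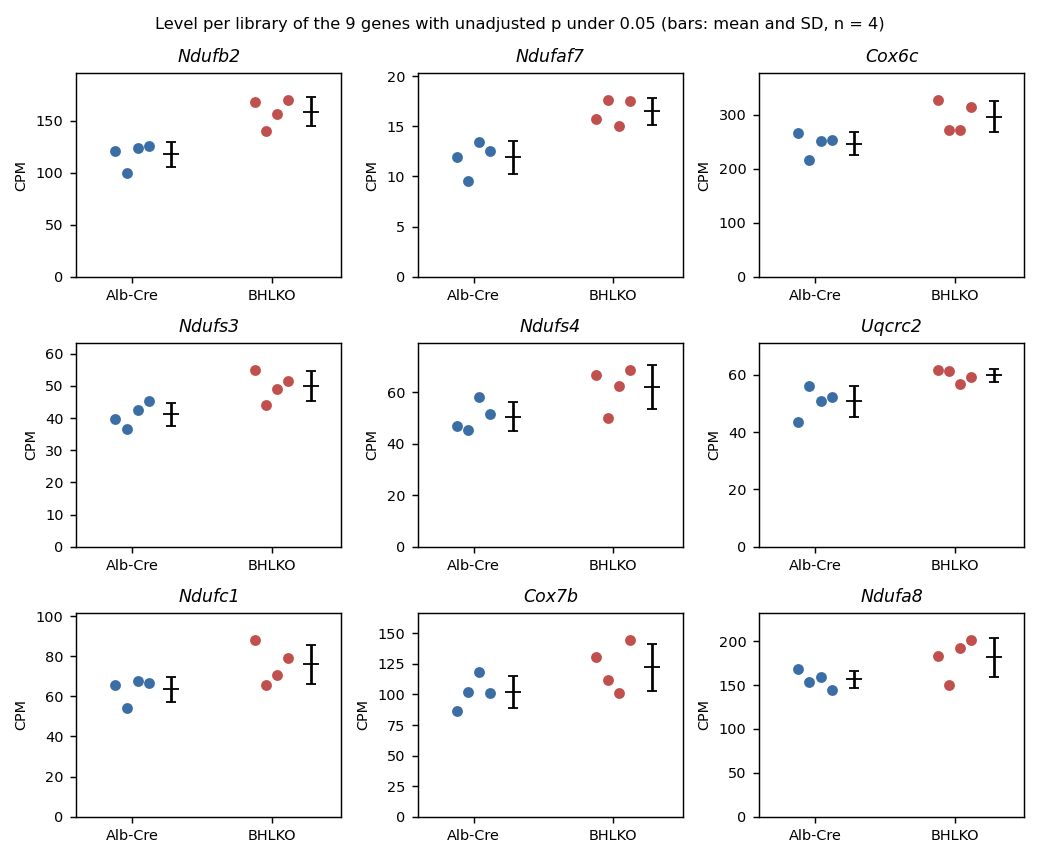
CPM in each library (points, Alb-Cre blue and BHLKO red, in the order of their numbers) for the 9 members with an unadjusted p under 0.05, with mean and SD over 4 libraries. All 9 means are higher in BHLKO, and the groups are separate for Ndufb2, Ndufaf7, Cox6c and Uqcrc2.

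Complex II, succinate dehydrogenase, belongs to both the respiratory chain and the TCA cycle and is encoded wholly in the nucleus. None of its 4 subunits passed the edgeR test, and the median log2 fold change was 0.01. Sdha, the flavoprotein that binds succinate, was read at 212, 174, 197 and 175 CPM in Alb-Cre and 208, 192, 172 and 203 CPM in BHLKO (log2 0.04 ± 0.10 SE, edgeR adjusted p = 0.895). Sdhb, the iron-sulfur subunit, was read at 254, 208, 254 and 203 CPM in Alb-Cre and 243, 196, 221 and 250.5 CPM in BHLKO (log2 −0.01 ± 0.11 SE, edgeR adjusted p = 0.974). In both genes the groups covered nearly the same range. Of the membrane anchors, Sdhc averaged 217 ± 17.1 and 214 ± 20.4 CPM (SD, n = 4 each; log2 −0.02 ± 0.10 SE, edgeR adjusted p = 0.935). Sdhd averaged 71.9 ± 6.74 and 81.2 ± 8.35 CPM (log2 0.18 ± 0.10 SE, edgeR adjusted p = 0.436). Interval bounds over the 4 genes ran from −0.24 (Sdhb) to 0.39 (Sdhd), which lies within 1.5-fold.

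Complex III, which passes electrons from ubiquinol to cytochrome c, had all 7 tested subunits above 0, and 0 of them were called. The median log2 fold change was 0.14. Uqcrc2, a large matrix-side core protein, was read at 43.5, 56.1, 50.7 and 52.3 CPM in Alb-Cre and 61.7, 61.3, 56.7 and 59.2 CPM in BHLKO. The groups did not overlap, by a narrow gap between Alb-Cre 2 and BHLKO 4 (log2 0.24 ± 0.10 SE, edgeR adjusted p = 0.245). Of its exonic bases, 26.6% overlap Pdzd9. Uqcr10, a small subunit, averaged 350.5 ± 37.7 and 399.9 ± 72.7 CPM with overlap (log2 0.19 ± 0.12 SE, edgeR adjusted p = 0.487). Uqcr11, another small subunit, averaged 337 ± 33.2 and 372 ± 22.7 CPM (log2 0.14 ± 0.09 SE, edgeR adjusted p = 0.488). Uqcrh, the hinge protein beside cytochrome c1 and the subunit with the highest level per length (905 CPM per kb in Alb-Cre), averaged 495 ± 50.8 and 508 ± 35.5 CPM (log2 0.04 ± 0.10 SE, edgeR adjusted p = 0.893). Uqcrb was nearly absent at 2.08 ± 0.512 and 2.97 ± 1.42 CPM, and 43.4% of its 50-base stretches occur in other genes. Uqcrq was untested, with 0 to 9 counts per library.

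Complex IV, cytochrome c oxidase, had 10 of 15 tested subunits above 0, 5 below and 0 called, with a median log2 fold change of 0.11. Cox6c, an accessory subunit, was read at 265, 216, 251 and 253 CPM in Alb-Cre and 327, 271, 271 and 314 CPM in BHLKO. Every BHLKO library lay above every Alb-Cre library, although BHLKO 3 and 4 lay close to Alb-Cre 1 (log2 0.26 ± 0.10 SE, edgeR adjusted p = 0.18). Cox7b was read at 86.4, 102, 119 and 101 CPM in Alb-Cre and 131, 112, 101 and 145 CPM in BHLKO, with overlap (log2 0.26 ± 0.12 SE, edgeR adjusted p = 0.298). Cox4i1, the common isoform of the subunit to which ATP binds, averaged 642 ± 91.7 and 611 ± 46.4 CPM (log2 −0.07 ± 0.10 SE, edgeR adjusted p = 0.787). Cox8a averaged 99.7 ± 2.93 and 98.7 ± 13.0 CPM (log2 −0.01 ± 0.10 SE, edgeR adjusted p = 0.968). Cox6b1 averaged 460.1 ± 37.9 and 459 ± 38.2 CPM, and its testis-type isoform Cox6b2 averaged 34.5 ± 8.85 and 36.8 ± 0.893 CPM. Cox6b2 made up 7.0% ± 1.87 of the counts of that pair in Alb-Cre and 7.46% ± 0.637 in BHLKO. Cox7a2l averaged 157 ± 35.2 and 149 ± 12.0 CPM (log2 −0.08 ± 0.13 SE, edgeR adjusted p = 0.802).

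The muscle isoforms Cox6a2 and Cox7a1 varied more between libraries than any other complex IV subunit of at least 50 CPM. Cox6a2 (chromosome 7, 128205435 to 128206387, mm10, minus strand) was read at 128, 157, 244 and 213 CPM in Alb-Cre and 334, 176, 287 and 483 CPM in BHLKO. BHLKO 5 was highest, and BHLKO 3 lay within the Alb-Cre range. The fitted fold was 1.72 (log2 0.79 ± 0.35 SE, 95% interval −0.05 to 1.62, edgeR adjusted p = 0.343). Of its exonic bases, 10.3% overlap Itgad. Cox6a2 made up 12.1%, 16.0%, 21.3% and 20.1% of the counts of Cox6a1 and Cox6a2 in Alb-Cre and 25.8%, 18.7%, 25.2% and 37.2% in BHLKO. Cox6a1, the isoform of most tissues, averaged 877 ± 50.3 and 849 ± 81.7 CPM (log2 −0.05 ± 0.09 SE, edgeR adjusted p = 0.842). Cox7a1 (chromosome 7, 30184144 to 30186078, mm10, plus strand) was read at 74.9, 59.8, 122 and 56.8 CPM in Alb-Cre and 141, 49.5, 111 and 146 CPM in BHLKO, with BHLKO 3 the lowest of all 8 (log2 0.51 ± 0.42 SE, edgeR adjusted p = 0.611). Cox7a2, its common counterpart, averaged 146 ± 10.2 and 158 ± 15.2 CPM (log2 0.11 ± 0.09 SE, edgeR adjusted p = 0.608).

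Heart muscle markers moved with Cox6a2. All 12 cardiac markers examined were above 0 in BHLKO and 0 were called, with a median log2 fold change of 0.83. At an unadjusted edgeR p under 0.05, 7 of them passed (58.3%, beside 16.1% of all tested genes). Their sum was 1530 to 3251 CPM in Alb-Cre and 2118 to 6348 CPM in BHLKO. Per 100 CPM of these markers, Cox6a2 stood at 8.39, 7.52, 7.51 and 10.1 CPM in Alb-Cre and 7.96, 8.32, 8.08 and 7.62 CPM in BHLKO. That ratio spread 1.34-fold over the 8 libraries, while the marker sum spread 4.15-fold and Cox6a1 per 100 CPM of markers spread 4.75-fold. The other muscle isoforms followed the markers less closely. Cox7a1 per 100 CPM of cardiac markers ran from 2.30 to 4.90, a 2.13-fold spread. Cox8b, which the member rule leaves out, ran from 1.44 to 6.63, a 4.60-fold spread. The 9 skeletal muscle markers summed to 77.5 to 155 CPM in Alb-Cre and 112 to 440.1 CPM in BHLKO, with Myl1 called. The 3 brown adipocyte markers, from cells that also use Cox7a1, summed to 126, 6.94, 114 and 10.6 CPM in Alb-Cre and to 120.4, 4.47, 7.82 and 29.3 CPM in BHLKO. The part of these tissues in the levels of Cox6a2, Cox7a1 and Cox8b was not tested.

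**Figure D3:**
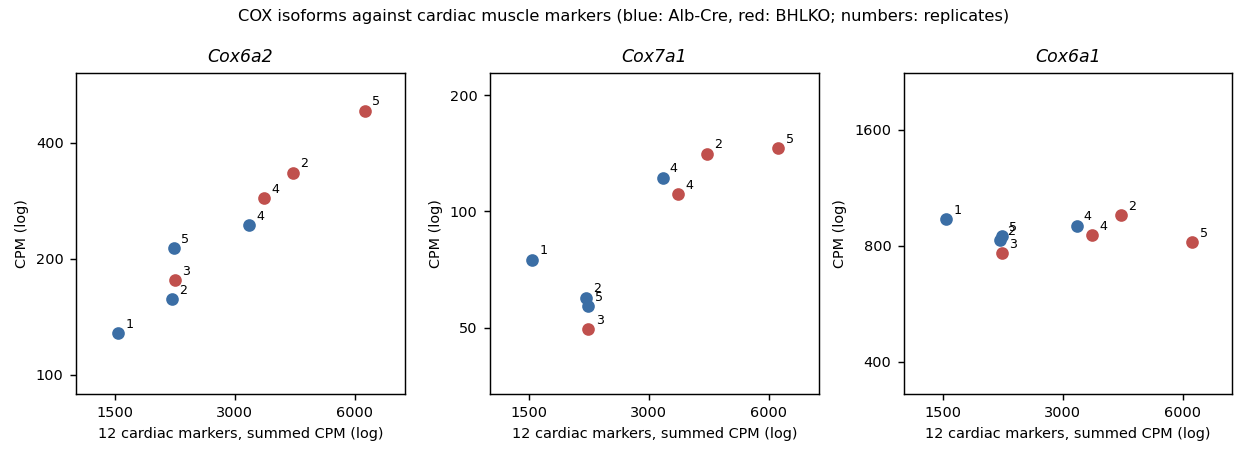
CPM of Cox6a2, Cox7a1 and Cox6a1 in each library against the summed CPM of 12 cardiac muscle markers, both axes logarithmic (Alb-Cre blue, BHLKO red, labels give the library number). Cox6a2 is higher in libraries with a higher marker sum, from 128 CPM in Alb-Cre 1 to 483 CPM in BHLKO 5, while Cox6a1 stays between 766 and 959 CPM.

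The 3 isoforms left out of the member rule are known to be tissue or oxygen regulated. Ndufa4l2, a HIF1A target, was read at 57.3, 66.1, 58.0 and 58.4 CPM in Alb-Cre and 48.7, 46.8, 57.9 and 43.5 CPM in BHLKO (log2 −0.28 ± 0.11 SE, edgeR adjusted p = 0.195). BHLKO 4 lay within the Alb-Cre range and the other BHLKO libraries below it. Cox4i2, the lung isoform of COX4 that is known as oxygen regulated, averaged 367 ± 37.3 and 320.2 ± 34.7 CPM with overlap (log2 −0.20 ± 0.10 SE, edgeR adjusted p = 0.368). Cox8b, a muscle and brown fat isoform, averaged 71.3 ± 39.5 and 76.0 ± 42.3 CPM (log2 0.09 ± 0.59 SE, edgeR adjusted p = 0.966).

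Complex V, the ATP synthase, had 13 of 17 tested subunits above 0, 4 below and 0 called, and 0 at an unadjusted p under 0.05. The median log2 fold change was 0.06. Atp5a1, the alpha subunit of the catalytic head, was read at 555, 436, 485 and 473 CPM in Alb-Cre and 619, 495, 492 and 595 CPM in BHLKO, with overlap (log2 0.17 ± 0.10 SE, edgeR adjusted p = 0.44). Atp5pb, the b subunit of the peripheral stalk, averaged 348 ± 40.3 and 396 ± 38.8 CPM (log2 0.19 ± 0.10 SE, edgeR adjusted p = 0.392). Atp5o, which joins that stalk to the head, averaged 227 ± 23.8 and 256 ± 31.3 CPM (log2 0.18 ± 0.11 SE, edgeR adjusted p = 0.441). Atp5d and Atp5e, the delta and epsilon subunits of the central stalk, had the highest levels per length, 727 and 915 CPM per kb in Alb-Cre, and log2 fold changes of 0.05 and 0.06. The 3 genes Atp5g1, Atp5g2 and Atp5g3 encode the same mature c subunit of the rotor. Atp5g3 gave 82.2% ± 0.957 of their counts in Alb-Cre and 80.9% ± 2.5 in BHLKO, Atp5g1 gave 17.5% ± 1.0 and 18.7% ± 2.46, and Atp5g2 was near absent at 1.70 ± 0.291 and 2.46 ± 0.686 CPM. Counts are uncertain for Atp5l, Atp5g2 and Atp5h, which share 84.8%, 38.3% and 36.9% of their 50-base stretches with other genes. They are also uncertain for Atp5o and Atp5pb, which share 45.6% and 37.6%, in part with genes whose exons overlap theirs (40.1% of exonic bases of Atp5o, with Donson and D430001F17Rik, and 21% of Atp5pb, with Gm42890 and Wdr77).

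Assembly factors build the complexes without staying in them. Of the 12 that the symbols matched, 9 were tested, 4 lay above 0, 5 below and 0 were called, with a median log2 fold change of −0.05. Ndufaf7, a methyltransferase of complex I assembly, was read at 12.0, 9.54, 13.5 and 12.6 CPM in Alb-Cre and 15.7, 17.6, 15 and 17.5 CPM in BHLKO. The groups did not overlap, and edgeR gave log2 0.46 ± 0.16 SE with adjusted p = 0.159. Ndufaf7 was named after its values were seen. Ndufaf4, Ndufaf5, Sdhaf2, Uqcrq and Cox7b2 had too few counts for the test, with at most 8, 15, 11, 9 and 6 counts in any library. Ndufs5-ps stood at 3.38 ± 0.508 and 3.68 ± 0.651 CPM.

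**Figure D4:**
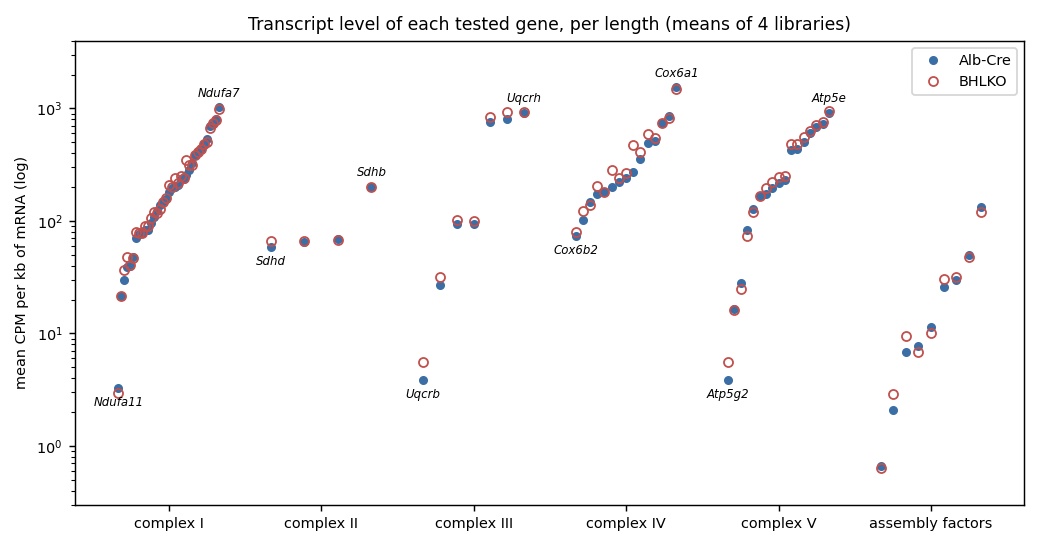
Mean CPM per kb of mRNA (log axis) over 4 Alb-Cre (filled blue) and 4 BHLKO (open red) libraries for each tested subunit and assembly factor, ordered within each complex by the Alb-Cre level. Among the wider gaps between open and filled points are those of Uqcrb, Atp5g2, the muscle isoforms and Ndufb2 (259 and 349 CPM per kb), and Cox6a1 is highest at 1537 CPM per kb in Alb-Cre.

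Levels within a complex were unequal. Per kb of mRNA, the median subunit stood in Alb-Cre at 182 CPM in complex I, 66.9 in complex II, 94.2 in complex III, 240.5 in complex IV and 217 in complex V. The lowest tested subunits were Ndufa11 (3.28 CPM per kb), Sdhd (58.5), Uqcrb (3.90), Cox6b2 (74.2) and Atp5g2 (3.84), and the highest were Ndufa7, Sdhb (201), Uqcrh, Cox6a1 and Atp5e. Of these low genes, Uqcrb and Atp5g2 share many 50-base stretches with other genes, as given above, and Ndufa11 shares 5.6%.

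Members tended to be low or high in the same libraries of a group. Summed over all 93 members, levels were 18050, 15820, 18230 and 16780 CPM in Alb-Cre and 19090, 16160, 17540 and 19300 CPM in BHLKO, or 17220 ± 1136 and 18020 ± 1469 CPM. The groups overlapped, and the ratio of means was 1.05. Alb-Cre 2 was the lowest of its group for 48 of 88 members (54.5%, beside 27.6% of all tested genes) and BHLKO 3 for 55 (62.5%, beside 25.9%). Alb-Cre 4 was the highest of its group for 42 members (47.7%, beside 23.5%), and BHLKO 5 for 37 (42%, beside 23.9%). Complex I summed to 6524 ± 419 and 6614 ± 479.9 CPM, complex II to 708 ± 64.1 and 717 ± 59.7, and complex III to 1519 ± 148 and 1648 ± 171. Complex IV summed to 3824 ± 282 and 4096 ± 420.4 CPM, complex V to 4369 ± 247 and 4680.0 ± 347. Each of these differences was smaller than the SD of the BHLKO libraries, but that of complex V was larger than the SD of the Alb-Cre libraries. An SD describes single libraries, not the error of a difference between means, and these sums were not tested. With 1 library left out at a time, the median log2 fold change ran from −0.02 to 0.09 for complex I and from −0.03 to 0.07 for complex II, and both turned below 0 without Alb-Cre 2, Alb-Cre 5, BHLKO 2 or BHLKO 5. It ran from 0.08 (without Alb-Cre 2) to 0.22 (without BHLKO 3) for complex III, from 0.10 to 0.16 for complex IV and from 0.03 (without BHLKO 5) to 0.12 (without BHLKO 3) for complex V. Without BHLKO 5 the median of complex III was 0.09. Without Alb-Cre 5, which lay apart, the medians of complexes I to V were −0.00093, −0.03, 0.14, 0.13 and 0.08.

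**Figure D5:**
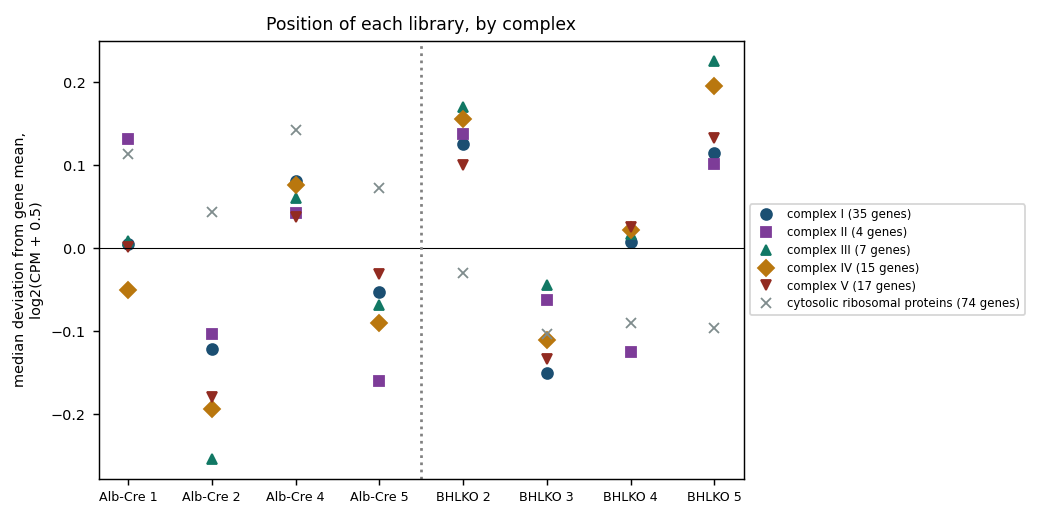
Median deviation of the tested genes of each complex, and of 74 cytosolic ribosomal protein genes, from each gene's mean over 8 libraries, on the log2(CPM + 0.5) scale. The complexes lie low in Alb-Cre 2 and BHLKO 3 and high in BHLKO 2 and BHLKO 5, and the ribosomal protein genes lie above 0 in every Alb-Cre library and below 0 in every BHLKO library.

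Other gene groups around the respiratory chain were read in the same fit. Cyc1, cytochrome c1 of complex III, had a log2 fold change of 0.12 ± 0.11 SE and Hccs, which attaches heme to cytochrome c, 0.30 ± 0.19 SE, and neither was called. Of 38 tested assembly factors outside the symbol rule, 0 were called, 24 lay above 0 and 0 passed an unadjusted p under 0.05. Of 17 TCA cycle genes, 0 were called and 13 lay above 0, with the smallest p at Suclg1 (log2 0.23 ± 0.11 SE, edgeR adjusted p = 0.301), a subunit of succinyl-CoA ligase. Of 75 mitochondrial ribosomal protein genes, 0 were called, 40 lay above 0 and 35 below, and the median was 0.01. Of 14 regulators of mitochondrial genes, 0 were called. Nrf1, the factor whose letters were searched above, was read at 35.5, 34.4, 38.7 and 35.4 CPM in Alb-Cre and 25.6, 30.3, 26.1 and 35.5 CPM in BHLKO (log2 −0.30 ± 0.13 SE, edgeR adjusted p = 0.255). BHLKO 5 lay at the Alb-Cre level and the other BHLKO libraries below it.

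Hspd1, the HSP60 chaperonin of the matrix, rose from 57.6 ± 7.69 to 85.0 ± 12.0 CPM (log2 0.56 ± 0.12 SE, edgeR adjusted p = 0.0217), 1 of 11 chaperone and protease genes. Its partner Hspe1 stood at 145 ± 30.0 and 221 ± 31.6 CPM and missed the threshold (log2 0.60 ± 0.15 SE, edgeR adjusted p = 0.0508). Of 74 cytosolic ribosomal protein genes, which are also short and abundant transcripts, 4 fell, 0 rose, and the median log2 fold change was −0.17. The calls are 5.41% of these genes, beside 2.26% of all tested genes. Log2 fold changes lay below 0 for 65 and above 0 for 9. At an unadjusted edgeR p under 0.05, 27 passed, all lower (36.5%, beside 16.1% of all tested genes). The 75 listed genes summed to 49470 to 52940 CPM in Alb-Cre and 43340 to 46680 CPM in BHLKO, without overlap.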

How the data were processed

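RNA was measured in 8 lung libraries. The submitters' processing notes name the build mm10 and, with no role or order, STAR 2.5.2b, DESeq2, cutadapt and HTSeq. The annotation and strand setting were not given in the sources used here. The table deposited by the authors holds whole-number read counts per gene and library, per the file headers, and a normalized signal that the authors made from them, which was not used for any value here.

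Counts were tested with edgeR 4.0.16 (R 4.3.3) for BHLKO against Alb-Cre over all 4 and 4 libraries: TMM scaling, filterByExpr by group, a robust quasi-likelihood F test and Benjamini-Hochberg adjustment over 13517 genes, called under 0.05. The procedure was also run on simulated data, and how well it recovers small differences is not reported here. Total counts were 6838427 to 15430372 per library. Levels are TMM-scaled CPM as mean ± SD, and fold changes carry an SE and a 95% interval. Positions, exon overlap, shared 50-base stretches and the length of the shortest principal coding transcript are from GENCODE M21, which matched 92 of 93 members, 2 of them by an older symbol. Promoters are RefSeq GRCm38.p6.

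Named genes are called members, the 3 subunits per complex with the smallest p and the 2 with the highest level per kb, isoform sets, all Sdh subunits, untested members, and of other lists the called genes and at most 3 more. Members and lists were chosen with earlier results of these data known. Alternatives were other scalings, filters and tests (DESeq2 1.42.0, limma-voom with limma 3.58.1), the replicate number as a block, and leaving out each library. Some genes that enter the counts and medians are not reported by name here.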

Additional observations from a re-analysis of the deposited data

Results flagged for a closer look

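In groups of 4 libraries, a level was marked where its lowest or highest library lay far from the other 3. The levels were those of tested named members, and sums over all members, each complex, complex I core and accessory subunits, and assembly factors. Summed markers of cardiac muscle, skeletal muscle, white adipocytes and brown adipocytes were also included. Of 90 such groups, 2 were marked, and chance marks about 1 in 20 groups. Ndufb2, the complex I subunit that rose, was marked in Alb-Cre 2, at 99.7 CPM beside 121 to 126 CPM in the other Alb-Cre libraries. Without that library its log2 fold change was 0.36 and the call was lost. The summed assembly factors were marked in BHLKO 3, at 248 CPM beside 268 to 271 CPM in the other BHLKO libraries. BHLKO 3 was also the lowest of its group for 55 of 88 members.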

How the results depend on the processing

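Member calls were 1 under the other scalings, filters, DESeq2 and limma-voom, 0 with the replicate block, and 0 to 1 with 1 library left out. Genes called over the whole table were 160 with the replicate block, 708 with DESeq2 and 131 to 520 with 1 library left out, the last without Alb-Cre 5. Over its 17 alternatives Ndufb2 ran from log2 0.36 to 0.51 and from adjusted p = 0.00405 to 0.107 in edgeR, DESeq2 or limma, and was called in 10. Deviations from the group means had correlations of 0.038, −0.006 and 0.022 in same-numbered libraries, and from −0.129 to 0.093 in the other pairs. Such values cannot show whether a number pairs animals, which the labels do not state. The numbers of Alb-Cre 1 and BHLKO 3 occur in no library of the other group. With the replicate number as a block, these libraries therefore added nothing to the group difference. In that fit Ndufb2 stood at 0.51 (edgeR adjusted p = 0.0788). Log2 values changed sign there for Ndufa2 (0.13), Sdhc (0.0505), Sdhb (0.112), Cox6a1 (0.0286), Cox4i1 (0.0775), Cox6b1 (0.059) and Cox8a (0.0177). With 1 library left out, signs changed only for genes near 0, between these values: Atp5d −0.00536 and 0.116, Cox4i1 −0.143 and 0.0191, Cox6a1 −0.11 and 0.000633, Cox6b1 −0.0615 and 0.0476, Cox6b2 −0.0606 and 0.216, Cox7a2l −0.165 and 0.0793. The rest were Cox8a −0.068 and 0.0414, Ndufa2 −0.0793 and 0.0836, Sdha −0.00376 and 0.0936, Sdhb −0.0656 and 0.0564, Sdhc −0.079 and 0.0196, and Uqcrh −0.0335 and 0.0768. The cause was not tested. Medians of each complex, taken in 15 alternative runs, and summed levels, taken in 12, moved by less than the spread between libraries. The median of all members lay between 0.03 and 0.11. For complex I that spread was 0.109 beside a median of 0.0155, so a change of sign could also lie within it. The same holds for complexes II (0.13 beside 0.0121), IV (0.126 beside 0.11) and V (0.108 beside 0.0599). It also holds for all members (0.098 beside 0.0566) and assembly factors (0.0706 beside −0.0491). For complex III the spread was 0.132 beside a median of 0.143. Staying within the spread therefore does not show that a median is stable. The 5 members with the fewest counts could not be tested, and why their counts were low was not examined.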
